A study of Mus musculus with 5 samples.

Results

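The BCL2 family genes were followed in B9, a murine line of cutaneous squamous carcinoma with the genotype HRAS-Q61L, after treatment with RAF inhibitors. Of 10 genes named (Bcl2, Bcl2l1, Mcl1, Bcl2l11, Bmf, Bid, Bad, Bak1, Bax and Pmaip1), 9 had at least 1 probe set annotated to that symbol alone, 31 probe sets in all among 45101 on the array. Bax was not analysed here. Of the 5 Affymetrix arrays, 2 were of cells in 1 µM vemurafenib (PLX4032), 2 in 1 µM PLX7904 and 1 in 0.2% DMSO, the vehicle, all harvested at 17 h. Every array was of the same HRAS-mutant line, so no line without the mutation was compared. The treated arrays are called biological replicates in the labels, which do not say whether they were separate cultures. The p-values rest on the spread of these arrays alone, which may be technical.

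BCL2 family proteins set whether the outer mitochondrial membrane is opened during apoptosis: guardians such as BCL2, BCL-XL and MCL1 hold the pore formers BAK and BAX in check, and BH3-only proteins oppose the guardians. In many epithelial and tumour cells ERK signalling lowers BIM and BMF and stabilises MCL1. Vemurafenib inhibits mutant BRAF but can raise ERK activity where RAS is mutant, and PLX7904 was designed to avoid that rise.

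Bid, whose BH3-only product links death receptors to mitochondria, was the only gene of the 9 to pass the test on its brightest probe set in vemurafenib relative to DMSO, where 10.6% of all genes passed, so the count does not set the family apart. Bid fell 1.40-fold in vemurafenib relative to DMSO. Of the other probe sets, 1 for Bcl2l11 rose 1.79-fold and 1 for Mcl1 rose 1.40-fold in vemurafenib relative to DMSO, while the brightest probe sets of both genes did not pass. No gene of the family passed between PLX7904 and DMSO. Without the intensity trend in the variance model, none of the calls on family genes or on the other apoptosis genes given here passed. Lysates of whole cultures were measured, so a change in the share of cells in some state and a change in RNA per cell cannot be told apart.

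The promoters of the 3 genes with a called probe set are shown because these are the family members whose measured RNA passed the test. They are the 250 bases before each RefSeq start site used, 5′ to 3′ on the gene's strand (GRCm38.p6), and Bcl2l11 has 2 such start sites. The Mcl1 window, that of Bcl2l11 start site 2 and most of the Bid window lie inside the gene spans given below.
Bid, chr6:120916825-120917074, minus strand: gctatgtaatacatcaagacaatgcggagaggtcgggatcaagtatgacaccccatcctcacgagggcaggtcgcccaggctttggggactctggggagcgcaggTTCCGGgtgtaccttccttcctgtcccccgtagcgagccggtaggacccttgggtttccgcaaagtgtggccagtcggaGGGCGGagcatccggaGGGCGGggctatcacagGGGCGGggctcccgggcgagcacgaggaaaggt
Mcl1, chr3:95658471-95658720, plus strand: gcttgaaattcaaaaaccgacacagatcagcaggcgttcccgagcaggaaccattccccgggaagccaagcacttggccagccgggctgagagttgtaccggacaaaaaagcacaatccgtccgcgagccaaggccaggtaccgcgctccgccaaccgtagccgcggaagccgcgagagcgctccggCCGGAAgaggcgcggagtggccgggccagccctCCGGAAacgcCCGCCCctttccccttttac
Bcl2l11 start site 1, chr2:128125788-128126037, plus strand: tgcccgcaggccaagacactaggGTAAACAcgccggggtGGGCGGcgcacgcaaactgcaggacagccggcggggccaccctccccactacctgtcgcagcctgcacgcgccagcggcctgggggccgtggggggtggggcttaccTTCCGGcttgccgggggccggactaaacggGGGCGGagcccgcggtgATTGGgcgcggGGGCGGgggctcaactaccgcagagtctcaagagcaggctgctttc
Bcl2l11 start site 2, chr2:128127325-128127574, plus strand: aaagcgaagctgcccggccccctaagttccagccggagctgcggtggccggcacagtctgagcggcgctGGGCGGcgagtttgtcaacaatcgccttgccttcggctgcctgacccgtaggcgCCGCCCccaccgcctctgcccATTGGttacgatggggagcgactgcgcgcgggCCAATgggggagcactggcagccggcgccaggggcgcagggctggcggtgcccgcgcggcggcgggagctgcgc
Capitals mark matches on either strand to the GC box GGGCGG, the ETS core CCGGAA, the CCAAT box CCAAT and the FOXO motif GTAAACA. The GC box was found in 32.7% of 32851 mouse promoter windows of this length, the ETS core in 12%, the CCAAT box in 33.8% and the FOXO motif in 3.17%. Bid held 3 GC boxes and 1 ETS core, and Mcl1 held 1 GC box and 2 ETS cores. Start site 1 of Bcl2l11 held 1 FOXO motif, 227 bases before the start, with 3 GC boxes, 1 ETS core and 1 CCAAT box, and start site 2 held 2 GC boxes and 2 CCAAT boxes. The CRE TGACGTCA (1.55% of windows), the shorter TGACG (17.8%), which lies within it, the AP-1 motif TGANTCA (6.75%), the E-box CACGTG (6.02%) and the TATA box TATAAA (12.4%) were also searched and had no match in these 4 windows. A match is a string of letters and no evidence of binding.

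Array medians lay between 44.1 and 51.9 signal units, and arrays correlated at 0.98 to 0.99 on the log2 scale. All 12 squamous epithelial markers were above the signal minimum, with signals of 1360 to 23790. Of the markers of other cells, 1 of 6 fibroblast, 1 of 4 endothelial, 1 of 6 immune and 1 of 5 melanocyte genes passed it. The summed fibroblast markers were 372.7 to 402.3 in vemurafenib, 194.6 to 246.4 in PLX7904 and 163.7 in DMSO, led by Pdgfra, and their part in the results was not tested.

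Across all genes, 10.6% of 10853 were called, with 565 (5.21%) lower and 590 (5.44%) higher in vemurafenib than in DMSO. In the family, 1 of 9 genes was called lower and 0 higher, with 3 at an unadjusted p under 0.05 (Bid, Bcl2 and Pmaip1), as were 25.9% of all genes. The family's median log2 fold change was -0.154, against -0.054 for all genes. The median moved with signal, at -0.179 for genes with mean signals of 47.5 to 217 and 0.046 for those of 1870 to 37300, and its part in the family's values was not tested. Over all probe sets, 7.15% were called, with 3.74% higher and 3.41% lower, and of the family's 25 tested probe sets 2 were higher and 1 lower. On 16 of the 25 both vemurafenib arrays were below the DMSO array, as on 47.9% of all probe sets tested, and on 7 both were above it, as on 32.6%.

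**Figure D1:**
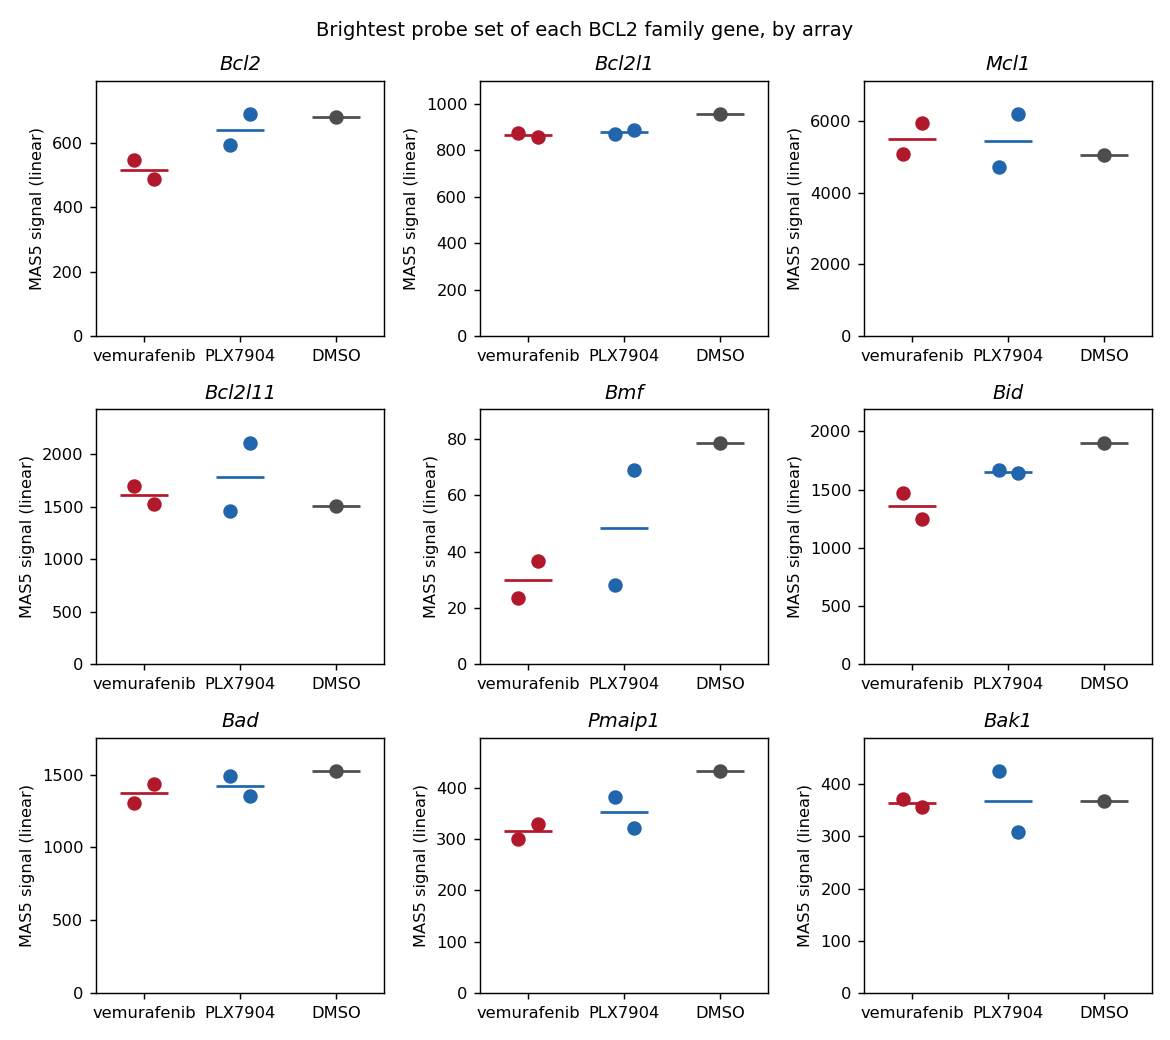
MAS5 signal (linear, y axes from 0) of the brightest probe set of each of 9 BCL2 family genes in vemurafenib, PLX7904 and DMSO, with 1 point per array and a line at each group's mean. For Bid both vemurafenib arrays (1466 and 1247) lie below both PLX7904 arrays (1667 and 1641) and the DMSO array (1901), while the groups overlap for Bak1.

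The guardians were expressed in every group. Bcl2, which encodes the founding anti-apoptotic member (chromosome 1, 106538176 to 106714290, GRCm38.p6 as for all genes here), had signals of 545 and 487 in vemurafenib, 593 and 688 in PLX7904 and 680 in DMSO on probe set 1457687_at. Both vemurafenib arrays were lowest. The log2 fold change for Bcl2 was -0.40 (SE 0.147, adjusted p 0.117) for vemurafenib against DMSO and -0.31 (adjusted p 0.125) against PLX7904, and neither passed. Neither dimmer Bcl2 probe set passed: 1422938_at had 88.3 and 111 in vemurafenib, 107 and 182 in PLX7904 and 133 in DMSO, and 1437122_at had 114 and 90.6 in vemurafenib, 117 and 122 in PLX7904 and 147 in DMSO.

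Bcl2l1, which encodes BCL-XL (chromosome 2, 152758732 to 152833803), had signals of 873 and 859 in vemurafenib, 868 and 888 in PLX7904 and 955 in DMSO on probe set 1420888_at. The treated arrays lay within a narrow range under the DMSO array. Its log2 fold change between vemurafenib and PLX7904 was -0.02, with a 95% interval of -0.23 to 0.19. A dim second Bcl2l1 probe set, 1420887_a_at, had 32.0 and 8.90 in vemurafenib, 54.7 and 88.2 in PLX7904 and 76.9 in DMSO, and did not pass (adjusted p 0.133 against DMSO). It passed the signal minimum of 47.4 through PLX7904 and DMSO. Without vemurafenib replicate 1 its adjusted p was 0.00759, but the group was then 1 array at 8.90, under that minimum, and no fold is given.

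Mcl1, the short-lived guardian (chromosome 3, 95656944 to 95663179), gave different readings on its 6 probe sets. Probe set 1416881_at had signals of 2303 and 2331 in vemurafenib, 1906 and 1813 in PLX7904 and 1657 in DMSO. Both vemurafenib arrays exceeded the other 3. Its log2 fold change was 0.48 (SE 0.0984, adjusted p 0.0183) against DMSO and 0.32 (adjusted p 0.0366) against PLX7904. The second of these calls ended when any 1 of the 4 treated arrays was left out (adjusted p 0.0506 to 0.138), or with no signal minimum (adjusted p 0.0584).

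The brightest Mcl1 probe set, 1448503_at, had 5084 and 5945 in vemurafenib, 4728 and 6200 in PLX7904 and 5072 in DMSO, with overlapping groups. Its log2 fold change was 0.12 (95% interval -0.20 to 0.44, adjusted p 0.656) against DMSO. Another, 1437527_x_at, ran lower, at 2312 and 2516 in vemurafenib, 2704 and 2826 in PLX7904 and 2711 in DMSO, and did not pass. Probe set 1416880_at had 1389 and 1501 in vemurafenib, 1540 and 1629 in PLX7904 and 1632 in DMSO. Probe set 1456243_x_at had 1970 and 2073 in vemurafenib, 2136 and 2421 in PLX7904 and 2253 in DMSO. These 3 probe sets read lowest in vemurafenib, opposite to 1416881_at, and the sixth, 1456381_x_at, overlapped between the compounds (1725 and 1662 in vemurafenib, 1776 and 1701 in PLX7904, 1785 in DMSO). The difference between probe sets of Mcl1 was not tested.

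**Figure D2:**
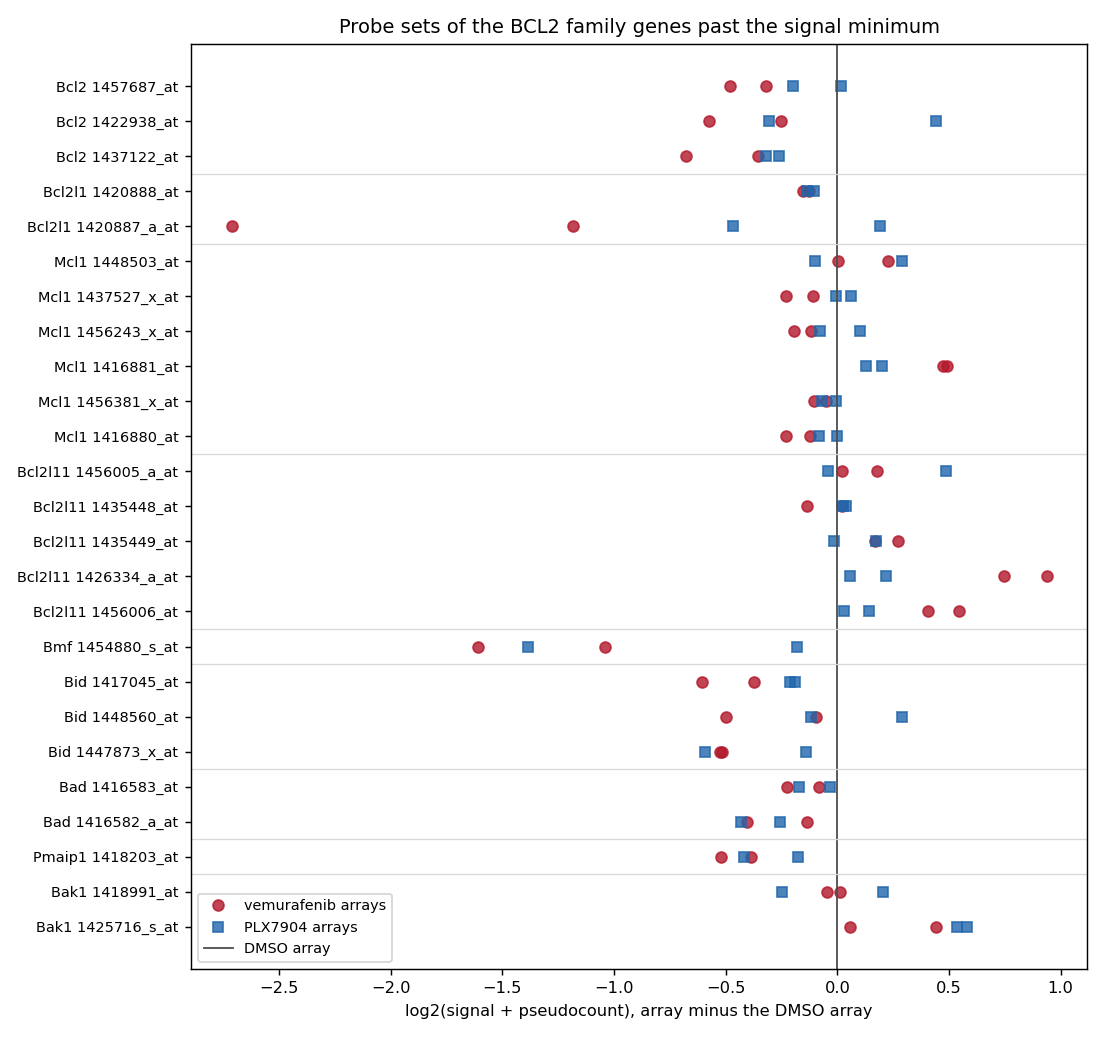
Log2(signal + pseudocount) of each treated array minus the DMSO array (x axis) for the 25 BCL2 family probe sets past the signal minimum, with circles for vemurafenib, squares for PLX7904 and a line at 0 for DMSO. The vemurafenib points of Bcl2l11 1426334_a_at and Mcl1 1416881_at lie right of their PLX7904 points, and those of Bid 1417045_at lie left of theirs.

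Among the BH3-only genes, Bcl2l11, which encodes the broad guardian antagonist BIM (chromosome 2, 128126038 to 128162547), also differed by probe set. Probe set 1426334_a_at had 503 and 440 in vemurafenib, 304 and 272 in PLX7904 and 261 in DMSO. The vemurafenib arrays were above all others. Its log2 fold change was 0.84 (SE 0.174, adjusted p 0.0193) against DMSO and 0.70 (adjusted p 0.0142) against PLX7904, and without PLX7904 replicate 2 the second call ended (0.62, adjusted p 0.0767). With no signal minimum the first ended (adjusted p 0.0512).

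Probe set 1456006_at of Bcl2l11 read 201 and 222 in vemurafenib, 167 and 154 in PLX7904 and 151 in DMSO, and did not pass (adjusted p 0.238 against DMSO). The brightest Bcl2l11 probe set, 1456005_a_at, had 1702 and 1529 in vemurafenib, 1464 and 2110 in PLX7904 and 1506 in DMSO. Its PLX7904 arrays spanned the vemurafenib arrays, and the log2 fold change against DMSO was 0.10 (adjusted p 0.771). Without PLX7904 replicate 1 that probe set was called lower in vemurafenib than in PLX7904 (log2 -0.39, adjusted p 0.0404), opposite to 1426334_a_at. Probe set 1435449_at had 465 and 499 in vemurafenib, 409 and 466 in PLX7904 and 413 in DMSO, and 1435448_at had 965 and 1073 in vemurafenib, 1078 and 1089 in PLX7904 and 1059 in DMSO. Neither passed. The difference between probe sets of Bcl2l11 was not tested.

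Bid (chromosome 6, 120893119 to 120917062) had signals of 1466 and 1247 in vemurafenib, 1667 and 1641 in PLX7904 and 1901 in DMSO on probe set 1417045_at. Both vemurafenib arrays were lowest and the DMSO array was highest. The log2 fold change of Bid was -0.49 (SE 0.118, adjusted p 0.0256) for vemurafenib against DMSO, a 1.40-fold lower level with a 95% interval of 1.17 to 1.68. Against PLX7904 it was -0.29 (95% interval -0.50 to -0.08, adjusted p 0.0762) and did not pass.

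The Bid call ended without vemurafenib replicate 2 (log2 -0.37, adjusted p 0.114), with no signal minimum (adjusted p 0.055), with arrays centred on their medians (-0.34, adjusted p 0.16) and with the mean of its 3 probe sets (-0.44, adjusted p 0.15). Without vemurafenib replicate 1, Bid also passed against PLX7904 (-0.41, adjusted p 0.0444). Its other probe sets had log2 fold changes of -0.52 (1447873_x_at, adjusted p 0.261) and -0.30 (1448560_at, adjusted p 0.458) against DMSO.

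Bmf, a BH3-only gene tied to the cytoskeleton (chromosome 2, 118528757 to 118549686), was dim, at 23.5 and 36.5 in vemurafenib, 28.0 and 68.9 in PLX7904 and 78.6 in DMSO. Both vemurafenib signals and that of PLX7904 replicate 1 (28.0) are under the signal minimum. Bmf passed that minimum through PLX7904 replicate 2 (68.9) and the DMSO array (78.6), so no fold is given. The DMSO array was highest, but vemurafenib did not pass against it (adjusted p 0.239). Pmaip1, the p53 target that encodes NOXA and binds MCL1 (chromosome 18, 66458604 to 66465558), had 300 and 330 in vemurafenib, 382 and 322 in PLX7904 and 432 in DMSO. All treated arrays were below the DMSO array, and the vemurafenib difference was -0.45 (SE 0.171, adjusted p 0.125).

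Bad, whose product is inactivated by survival kinases (chromosome 19, 6941861 to 6951905), had 1303 and 1439 in vemurafenib, 1488 and 1354 in PLX7904 and 1524 in DMSO on probe set 1416583_at, and its log2 fold change of -0.15 against DMSO did not pass (adjusted p 0.443). On 1416582_a_at Bad had 923 and 1113 in vemurafenib, 906 and 1023 in PLX7904 and 1222 in DMSO. The effector Bak1 (chromosome 17, 27019812 to 27028627) had 371 and 356 in vemurafenib, 425 and 309 in PLX7904 and 368 in DMSO. These groups overlapped, and the vemurafenib difference of Bak1 from DMSO was -0.02 (adjusted p 0.97). The second Bak1 probe set, 1425716_s_at, was dim, at 55.4 and 41.6 in vemurafenib, 61.3 and 59.4 in PLX7904 and 39.9 in DMSO. The 6 family probe sets under the signal minimum, 2 each of Bcl2, Bcl2l1 and Bmf, were not tested and had mean signals of 4.38 to 47.3.

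**Figure D3:**
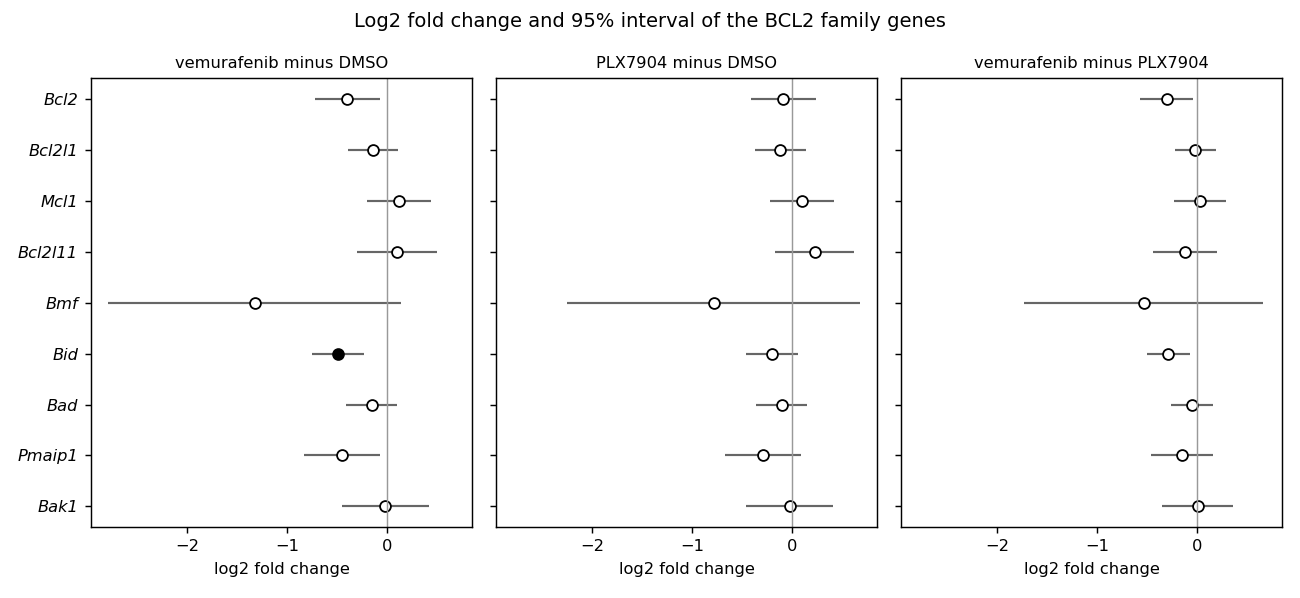
Log2 fold change (x axis) with 95% interval of the brightest probe set of 9 BCL2 family genes in 3 comparisons, with filled points for genes that passed at an adjusted p of 0.05. Bid in vemurafenib minus DMSO (-0.49) is the only filled point. Bmf has the widest intervals, and its positions rest in part on signals under the signal minimum.

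Between PLX7904 and DMSO, limma called 0 of 10853 genes (0%) and 0 of 9 family genes. At an unadjusted p under 0.05 there were 722 genes (6.65%) and 0 family genes. By probe set 0% were also called. Of the family, 1 probe set, Bad 1416582_a_at, had an unadjusted p under 0.05 (log2 -0.34, adjusted p 0.797), as had 6.04% of all probe sets. On the brightest probe sets, log2 fold changes of the family genes other than Bmf ran from -0.30 (Pmaip1) to 0.22 (Bcl2l11). Bmf is left out because PLX7904 replicate 1 is under the signal minimum. On 10 of 25 probe sets both PLX7904 arrays were below the DMSO array, as on 36.5% of all tested, and on 5 both were above it, as on 29.9%.

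The 2 compounds were compared at the same dose and time. Of all genes, 13.3% were called, with 6.43% higher and 6.86% lower in vemurafenib than in PLX7904. In the family 0 of 9 genes passed, with 2 (Bid and Bcl2) at an unadjusted p under 0.05, as were 27.3% of all genes. By probe set 9.15% were called, with 4.62% higher and 4.53% lower, and 2 family probe sets were higher (Mcl1 1416881_at and Bcl2l11 1426334_a_at) and 0 lower. Both vemurafenib arrays were below both PLX7904 arrays on 9 of 25 probe sets, as on 31.2% of all tested, and above them on 3, as on 22.2%. The interval of the difference was -0.35 to 0.36 for Bak1 and -0.26 to 0.16 for Bad, so equal levels were not shown. None is given for Bmf, whose vemurafenib signals are under the signal minimum.

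The other genes of the apoptosis pathway were read from 8 lists with 78 tested genes, of which 8 were higher and 5 lower in vemurafenib than in DMSO, where 5.44% of all genes were higher and 5.21% lower. Against PLX7904, 9 were higher and 8 lower, where 6.43% of all genes were higher and 6.86% lower. Both lower counts include Fas and Trp73, which passed the signal minimum through PLX7904 and DMSO. Against DMSO in PLX7904, 0 of the 78 passed and 5 had an unadjusted p under 0.05, as had 6.65% of all genes. Of 9 other BCL2 family genes 0 passed between vemurafenib and DMSO, and Bcl2l15 was higher in vemurafenib than in PLX7904 (log2 0.43, adjusted p 0.0395). The Bcl2l15 call ended without vemurafenib replicate 2 (adjusted p 0.247), PLX7904 replicate 1 (0.0539) or PLX7904 replicate 2 (0.152), with no signal minimum (0.0859), with averaged probe sets (0.0825) and in the probe-set fit (0.0599). Of 12 genes of mitochondrial release and the apoptosome 0 passed against DMSO, and Opa1, a fusion GTPase of the inner membrane, was lower in vemurafenib than in PLX7904 (-0.45, adjusted p 0.00814). That Opa1 call ended with averaged probe sets (-0.12, adjusted p 0.61), under median centring (0.0916) and without vemurafenib replicate 1 (0.0576).

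Of 8 caspases, 2 were lower in vemurafenib than in DMSO, as were 5.21% of all genes. Against PLX7904 3 were lower, as were 6.86% of all genes. These 3 (Casp1, Casp4 and Casp12) are inflammatory-type caspases, and caspases were not tested as a set. Casp4 had 491 and 571 in vemurafenib, 944 and 876 in PLX7904 and 1092 in DMSO. Casp12 had 223 and 203 in vemurafenib, 423 and 441 in PLX7904 and 441 in DMSO. Both vemurafenib arrays were lowest for each gene, at log2 fold changes against DMSO of -1.04 for Casp4 (adjusted p 0.00122) and -1.04 for Casp12 (adjusted p 0.00351). Casp1 was lower than in PLX7904 (-0.70, adjusted p 0.0158), a call that ended without vemurafenib replicate 1 (adjusted p 0.0801), PLX7904 replicate 1 (0.0601) or PLX7904 replicate 2 (0.0641), and with no signal minimum (0.0543). Of 5 inhibitor of apoptosis genes, Birc5, which encodes the mitotic protein survivin, was lower than in DMSO (-0.34, adjusted p 0.0211). It was also lower than in PLX7904 (-0.35, adjusted p 0.006). Of all genes, 5.21% were lower than in DMSO and 6.86% than in PLX7904. Median centring ended both Birc5 calls (-0.19, adjusted p 0.432, against DMSO and -0.20, adjusted p 0.249, against PLX7904), and leaving out vemurafenib replicate 2 ended the call against DMSO (adjusted p 0.0914).

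Of 9 death receptor genes, the receptor gene Fas was called lower in vemurafenib than in DMSO, as were 5.21% of all genes. Cflar, which encodes the caspase-8 inhibitor FLIP, was called higher, as were 5.44%. Against PLX7904, 2 of the 9 were higher and 1 lower, as were 6.43% and 6.86% of all genes. Fas had 34.9 and 14.0 in vemurafenib, 122 and 150 in PLX7904 and 164 in DMSO (adjusted p 0.00807 against DMSO). Both Fas signals in vemurafenib are under the signal minimum of 47.4, so the gene was tested only because PLX7904 and DMSO were high. No fold is given, and the call is no separate support for a fall. Cflar had 2620 and 2621 in vemurafenib, 1916 and 1745 in PLX7904 and 1788 in DMSO (0.55, adjusted p 0.00724). Both vemurafenib arrays were below the other 3 for Fas and above them for Cflar, while PLX7904 and DMSO overlapped for Cflar. The Cflar call ended with the mean of its probe sets (0.63, adjusted p 0.0714). The adaptor gene Tradd was higher than in PLX7904 (0.46, adjusted p 0.0192), a call that ended without vemurafenib replicate 1 (adjusted p 0.0556), vemurafenib replicate 2 (0.076) or PLX7904 replicate 1 (0.0624), with averaged probe sets (0.526) and without x, s and a probe sets (0.02, adjusted p 0.965).

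Of 17 regulators of BIM, BMF and BAD, 5 were higher and 0 lower in vemurafenib than in DMSO, where 5.44% of all genes were higher and 5.21% lower. The kinase gene Pim3 had 5108 and 5209 in vemurafenib, 3528 and 3284 in PLX7904 and 2720 in DMSO (log2 0.92, adjusted p 0.000159). Pim1, a kinase gene of the same family, had 1079 and 1155 in vemurafenib, 605 and 566 in PLX7904 and 643 in DMSO (0.79, adjusted p 0.00337). PIM kinases phosphorylate BAD. Mapk9 (0.46, adjusted p 0.0228), Ywhaz (0.26, adjusted p 0.0326) and Dynll1 (0.25, adjusted p 0.0273) were the other 3. The Mapk9, Ywhaz and Dynll1 calls ended without vemurafenib replicate 1 (adjusted p 0.121, 0.212 and 0.178). The Ywhaz and Dynll1 calls also ended under quantile normalization (Ywhaz 0.13, adjusted p 0.189, and Dynll1 0.07, adjusted p 0.435), loess (Ywhaz adjusted p 0.226, Dynll1 0.331), median centring (0.0594 and 0.0711) and no signal minimum (0.132 and 0.151), and that of Ywhaz without x, s and a probe sets (0.302). Against PLX7904, Pim1, Pim3 and the transcription factor gene Foxo1 (0.52, adjusted p 0.0421) were higher and Foxo3 (-0.40, adjusted p 0.0129) was lower. Of all genes, 6.43% were higher than in PLX7904 and 6.86% lower. The Foxo3 difference was -0.02 without x, s and a probe sets (adjusted p 0.95), and its call also ended under median centring (0.152), with averaged probe sets (0.555) and without vemurafenib replicate 2 (0.0787) or PLX7904 replicate 2 (0.0541). The Foxo1 call ended with averaged probe sets (adjusted p 0.425), with no signal minimum (0.106) and without vemurafenib replicate 1 (0.127) or PLX7904 replicate 2 (0.197). With averaged probe sets the Pim3 call against PLX7904 also ended (adjusted p 0.253).

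Of 7 genes listed under MCL1 stability, the pseudokinase gene Trib1 was higher than in DMSO (log2 0.73, adjusted p 0.0286) and than in PLX7904 (0.80, adjusted p 0.00594). Of all genes, 5.44% were higher than in DMSO and 6.43% than in PLX7904. Whether Trib1 acts on MCL1 was not tested. The Trib1 call against DMSO ended without vemurafenib replicate 2 (adjusted p 0.0761) and with no signal minimum (0.0887), and that against PLX7904 with averaged probe sets (0.369). Of 11 p53 apoptosis regulators, 1 was higher and 1 lower than in DMSO, as were 5.44% and 5.21% of all genes. Against PLX7904, 2 were higher and 1 lower, as were 6.43% and 6.86% of all genes. Mdm2, the gene of the p53 ubiquitin ligase, had 1594 and 1656 in vemurafenib, 939 and 1190 in PLX7904 and 925 in DMSO (0.81, adjusted p 0.00585). Trp73, a dim relative of p53, had 37.9 and 51.7 in vemurafenib, 91.4 and 114 in PLX7904 and 142 in DMSO (adjusted p 0.0254 against DMSO). Its vemurafenib replicate 1 and the mean of its vemurafenib arrays are under the signal minimum. Trp73 was thus tested only because PLX7904 and DMSO were high, and no fold is given. Its call ended with no minimum (adjusted p 0.0907). Against PLX7904 Trp73 also passed (adjusted p 0.0378), a call that ended with any of 3 treated arrays left out (adjusted p 0.0718 to 0.166, all but vemurafenib replicate 2) and with no minimum (0.117), quantile normalization (0.0553), loess (0.0534), averaged probe sets (0.632) or a fit of the 4 treated arrays alone (0.0505). Trp53inp1 was higher than in PLX7904 (0.68, adjusted p 0.0101). Averages of a gene's probe sets took in those under the signal minimum, which the main fit leaves out. With averages, the calls against DMSO of Pim3, Mapk9, Ywhaz, Dynll1, Trib1, Mdm2 and Trp73 ended. Trp53inp1 turned to -0.26 against PLX7904, and the Mdm2 (adjusted p 0.931) and Cflar (0.104) calls against PLX7904 also ended. Both tested Mdm2 probe sets were higher than in DMSO (0.81, adjusted p 0.0106, and 0.83, adjusted p 0.0185, in the probe-set fit). Tested probe sets of Pim3, Mapk9, Ywhaz and Dynll1 differed in sign. Under averaging, the calls of Casp4, Casp12, Birc5 and Pim1 held. That of Fas also held, with both vemurafenib signals under the signal minimum. Casp4, Birc5 and Fas had no second tested probe set, so averaging was little or no test of them.

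**Figure D4:**
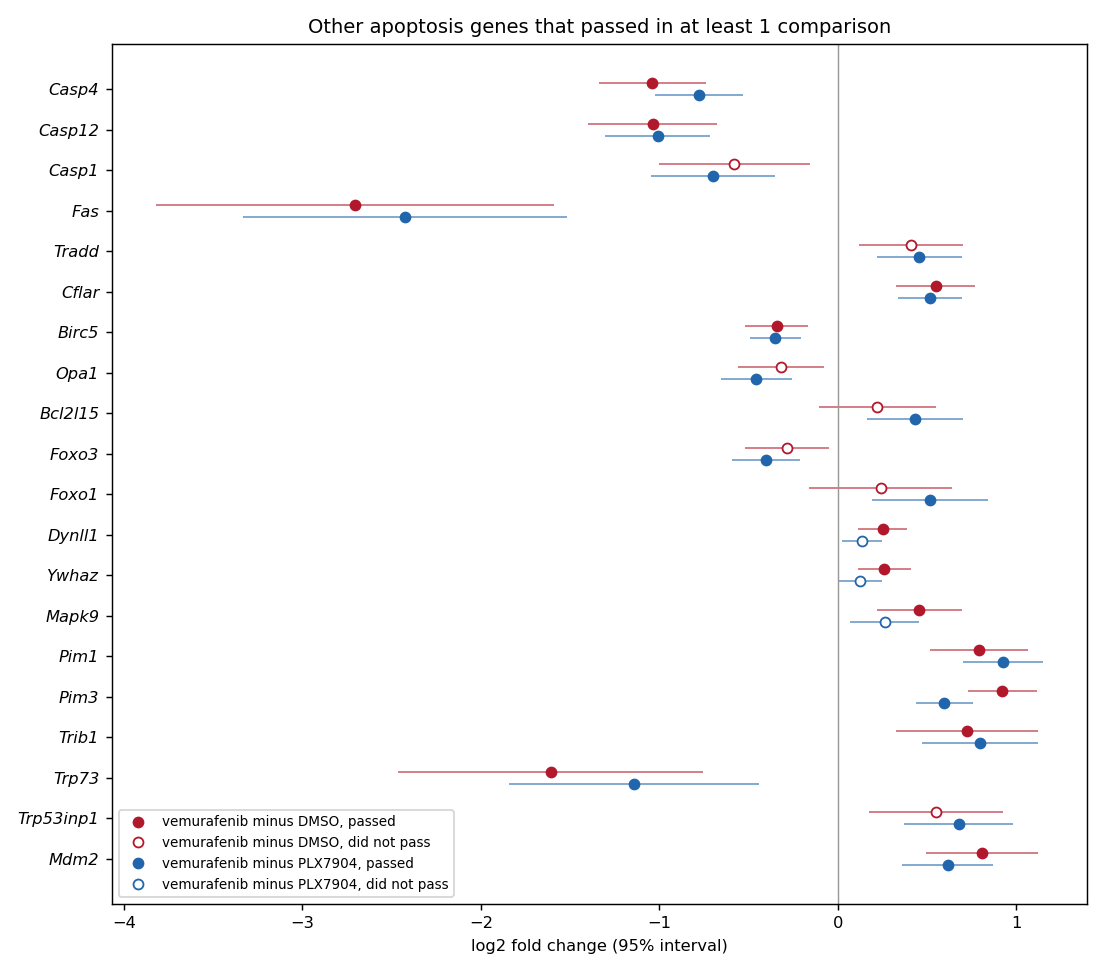
Log2 fold change with 95% interval (x axis) of the apoptosis genes outside the 9 that passed in at least 1 comparison, for vemurafenib minus DMSO and vemurafenib minus PLX7904, with filled points where the gene passed. The filled points against DMSO include Casp4 and Casp12 at -1.04 and Pim3 at 0.92, and the position of Fas rests on vemurafenib signals (34.9 and 14.0) under the signal minimum. That of Trp73 rests in part on a vemurafenib signal (37.9) under it.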

How the data were processed

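The deposited values are linear MAS5 signal intensities, 1 per probe set and array, which the authors made with MAS5 per the submitters' processing notes. The middle 96% of each array averages 500, a global scaling. Signal intensity carries no count depth, and 5 arrays limit the precision. Probe sets were named from the platform annotation: 34958 had 1 symbol, 932 several and 9160 none, beside 64 controls. Values were taken as log2(signal + 3.34), the 10th percentile of all values, and probe sets with a mean under 47.4, the median, were left out, so folds of dim genes are understated. Of the family's 31 probe sets 25 passed. Genes were represented by their brightest probe set (10853 genes), and all 19766 probe sets were also fitted. limma 3.58.1 (R 4.3.3) fitted 3 group means with eBayes and an intensity trend, with Benjamini-Hochberg adjustment over all tested features and a threshold of 0.05. The single DMSO array takes its spread from the treated arrays (2 residual and 8.28 prior degrees of freedom). Genes were named by rule: every family gene, and of each list at most the 3 highest and 3 lowest called genes per comparison. The family and the lists were chosen with earlier results of these data known. The fit was tested on simulated arrays that all shared the spread of the treated arrays. That test does not cover the spread of the DMSO group. Promoters are from RefSeq, GRCm38.p6. Alternatives covered normalization, filter, pseudocount, probe-set rule, variance model, replicate block and leaving out arrays.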

Additional observations from a re-analysis of the deposited data

How the results depend on the processing

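With 1 DMSO array, the spread of the vehicle group was not measured. Results not given below kept their direction under the alternatives run, and every call of a family gene or listed gene ended when the intensity trend was dropped. Log2 fold changes are vemurafenib minus DMSO (V-D), PLX7904 minus DMSO (P-D) and vemurafenib minus PLX7904 (V-P), and the cause of each change was not tested. Of single-gene and probe-set values under all alternatives, 79 changed sign, 110 lost a call, 13 gained one and 1839 did neither.

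Without the filter, 657 genes and 743 probe sets passed in V-D and 1098 probe sets in V-P, with 0 family genes lower, 1 family probe set higher and 0 lower in V-D, and 1 higher in V-P. Without the trend, 43 genes passed in V-D and 35 in V-P, with 0 family genes, 0 probe sets and 0 family probe sets in either. With the filter at the 75th percentile, 3 genes passed in P-D, and 1 family probe set was higher in V-D and 1 in V-P, since the Bcl2l11 probe set fell under the minimum. Robust eBayes gave 3 genes in P-D.

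With the mean of all probe sets, 443 genes passed in V-D and 660 in V-P, with 0 family genes lower. These means took in probe sets under the signal minimum, among them Bcl2l1 1426191_a_at, at 2.53 in DMSO and a log2 fold change of 2.21 in P-D. The values then were 0.076 in V-D and 0.555 in P-D for Bcl2l1, -0.033 in V-P for Mcl1, 0.204 in V-P for Bcl2l11 and 0.011 in V-P for Bad. Bak1 was 0.115 in V-D, 0.268 in P-D and -0.153 in V-P. In P-D, Dynll1 was -0.069, Pim1 0.011, Ywhaz -0.133, Trib1 0.205, Trp73 0.094, Tradd 0.106 and Foxo1 0.108. Trp53inp1 was -0.047 in V-D, 0.216 in P-D and -0.263 in V-P. Without x, s and a probe sets, 3 genes passed in P-D, Bcl2l11 was -0.058 in V-D, and in P-D Ywhaz was -0.056, Tradd 0.317 and Foxo3 -0.014.

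Median centring moved the median of all genes in V-D to 0.096, where it was -0.054 as deposited, and the higher share of calls to 77.7%, against 51.1% as deposited. In V-P that share was 80% against 48.4%. It left 0 family genes and 0 family probe sets lower in V-D and 5 genes in P-D. Bcl2l1 was 0.009 in V-D and 0.126 in V-P, Bcl2l11 0.023 and Bad 0.095 in V-P, and Bak1 0.133 in V-D. Mcl1 1416880_at was 0.013 in V-P, Mcl1 1456381_x_at 0.074 in V-D and 0.108 in V-P, and Bcl2l11 1435448_at 0.092 in V-D and 0.056 in V-P. Quantile normalization and cyclic loess each left 0 family probe sets lower in V-D. Quantile normalization gave 0.012 for Bcl2l1 and -0.008 for Mcl1 in V-P, 0.083 in V-D and 0.026 in P-D for Bak1, and 0.009 for Casp12, -0.027 for Birc5 and -0.047 for Dynll1 in P-D. Loess gave 0.002 for Bcl2l1 in V-P, 0.088 in V-D and 0.032 in P-D for Bak1, and 0.028 for Casp12, -0.035 for Birc5 and 0 for Tradd in P-D.

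The replicate numbers did not pair the arrays (correlation of deviations -0.0071). With the replicate block, 4 genes and 7 probe sets passed in P-D, Mcl1 was -0.038 in V-D and -0.06 in P-D, and Bak1 0.111 in V-D and 0.106 in P-D. In P-D the block gave -0.203 for Bcl2 1422938_at, 0.078 for Bcl2l1 1420887_a_at, -0.018 for Mcl1 1437527_x_at, -0.05 for Mcl1 1456243_x_at and -0.009 for Bcl2l11 1435448_at.

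Leaving out each treated array in turn gave 0 to 30 genes and 0 to 101 probe sets in P-D, and 900 to 1280 genes and 1012 to 1922 probe sets in V-P. Family genes lower were 0 to 1 in V-D and 0 to 1 in V-P, family probe sets lower 0 to 2 in V-D and 0 to 2 in V-P, and family probe sets higher 0 to 1 in V-P. In V-D, Bak1 ran from -0.046 to 0.011 and Bcl2l11 1435448_at from -0.134 to 0.018. In V-P, Bad ran from -0.123 to 0.02, Bad 1416582_a_at from -0.061 to 0.208, Mcl1 from -0.173 to 0.217, Bcl2l11 from -0.386 to 0.14, Bak1 from -0.223 to 0.234 and Bid 1447873_x_at from -0.381 to 0.071. In P-D, Bcl2 ran from -0.198 to 0.016, Mcl1 from -0.101 to 0.29, Bcl2l11 from -0.04 to 0.486, Bak1 from -0.251 to 0.206, Bcl2 1422938_at from -0.311 to 0.441, Bcl2l1 1420887_a_at from -0.469 to 0.189, Mcl1 1437527_x_at from -0.004 to 0.06, Mcl1 1456243_x_at from -0.076 to 0.104, Bcl2l11 1435449_at from -0.014 to 0.174, Bid 1448560_at from -0.119 to 0.287, Casp12 from -0.059 to 0.003, Birc5 from -0.008 to 0.022 and Cflar from -0.035 to 0.1.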
